A study of Mus musculus with 15 samples.

Results

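The 6 genes described here encode chemokine receptors: Ccr1, Ccr2, Ccr7, Cx3cr1 and Cxcr4, which signal, and Ccrl2, an atypical receptor. They were taken by symbol from the 19456 genes of the deposited count table, and all 6 passed the filter on low counts that left 15802 genes for testing. RNA was sequenced from sorted cells of adult male wild-type C57BL/6 mice, in 15 libraries from 4 populations that carried no transgene and received no treatment. There were 3 libraries of Ly6Chi blood monocytes and 4 each of 3 subsets of macrophages from the small intestine, named by the surface proteins Tim-4 and CD4. Cells with neither protein are Tim-4–CD4– macrophages, those with CD4 alone are Tim-4–CD4+, and those with both are Tim-4+CD4+, and values for the subsets are always given in that order. Of the comparisons between subsets, the CD4 step sets the Tim-4–CD4+ subset against the one with neither protein, the Tim-4 step sets Tim-4+CD4+ macrophages against those with CD4 alone, and the whole span sets Tim-4+CD4+ macrophages against those with neither protein. Macrophages were gated on CD64, MHCII and CD11b in the absence of Ly6C. Each library was a pool of cells from 3 mice, or 4 mice for monocyte replicate 2, so that a value is an average over animals and the spread between libraries covers both animals and sorts. Gut tissue was digested with enzymes before sorting whereas blood was only lysed, so a difference between monocytes and macrophages and a difference between the preparations cannot be told apart.

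Chemokine receptors are membrane proteins that couple to inhibitory G proteins and steer leukocytes along gradients of chemokines. Ccr2 draws Ly6Chi monocytes out of the bone marrow and into tissues, and Cx3cr1, the fractalkine receptor, is carried by monocytes and is a hallmark of gut macrophages. Ccr1 binds several inflammatory CC chemokines, Cxcr4 binds Cxcl12 and retains cells in the marrow and other niches, and Ccr7 guides dendritic cells to lymph nodes. Ccrl2 binds chemerin but does not signal like the others, and presents it to the signalling receptor Cmklr1. The question these libraries address is how the receptors differ between the circulating precursor and macrophage subsets that differ in their renewal from it.

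The smallest library held 39388763 reads on genes, the largest 151510641, and the median was 63249039. Levels are given as CPM, the reads of a gene relative to its library's total after TMM scaling, a correction for differences in RNA composition, which are comparable between libraries but not between genes. The genes of the sort matched the labels: Ly6c2 was at 820 to 1540 CPM in monocytes and at most 3.46 in any macrophage library, Timd4 was at 336 to 390 in Tim-4+CD4+ macrophages and at most 4.47 elsewhere, and Cd4 was at 484 to 924 in the CD4+ subsets and at most 39.2 elsewhere. Macrophage markers (8 genes) summed to 15000 to 21400 CPM in the subsets and 3160 to 3610 in monocytes. Of the markers of other cells, the T cell list (9 genes) summed to at most 14.4 CPM, the B cell list (6 genes) to at most 73.2, the epithelial list (6 genes) to at most 22.4 and the eosinophil list (4 genes) to at most 17.9 in any library. The dendritic cell list (8 genes) summed to 119 to 167 CPM in monocytes and 219 to 398 in the subsets, and the neutrophil list (4 genes) to at most 2.61 in the subsets. In monocytes the neutrophil list summed to 144 to 211 CPM, nearly all of it Mmp8, a collagenase gene, at 186 ± 36.5 (SD, n = 3), with Ltf at 0.0708, Cxcr2 at 0.199 and Retnlg at 0.

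Against Ly6Chi blood monocytes, each macrophage subset had less Ccr2 mRNA and more of the other 5 receptors. Ccr2 was 3.98-fold, 31.3-fold and 311-fold lower in the subsets. Among macrophages Ccr2 was lower at each step, Ccrl2 was lower in the Tim-4 step and the whole span, Ccr7 was lower in the whole span, and no member was called higher. A gene was called when its p from edgeR's quasi-likelihood test, adjusted over all genes tested, was under 0.05. Against monocytes 5 members were called higher and 1 lower in each subset. Of all genes, 65.4%, 69.8% and 70.9% were called in these comparisons, 37.3%, 39.1% and 39.5% higher and 28.1%, 30.7% and 31.3% lower, so a count of 6 says little about the members. The median log2 fold change of the members was 2.74, 2.82 and 2.62, next to 0.08, 0.11 and 0.10 over all genes. In the CD4 step 0 members were called higher, where 4.52% of all genes were, and 1 lower, where 5.53% were (10.1% in either direction). In the Tim-4 step 0 were called higher, where 2.07% of all genes were, and 2 lower, where 1.34% were (3.41% in either direction). Over the whole span 0 were called higher, where 11.3% of all genes were, and 3 lower, where 11.9% were (23.1% in either direction). In bulk RNA, fewer cells that carry a transcript and less of it per cell cannot be told apart.

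**Figure D1:**
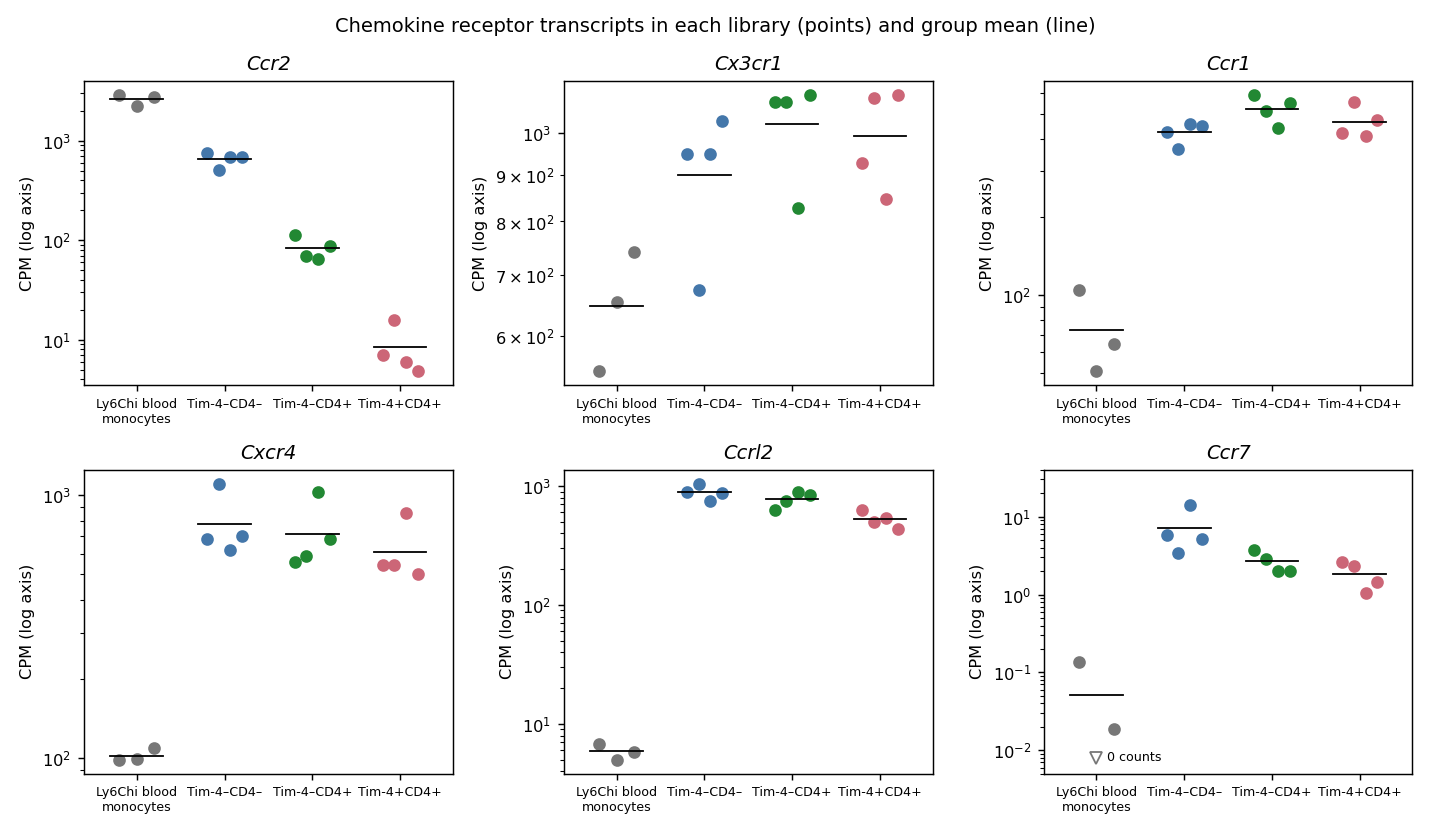
CPM of the 6 receptor genes (log axes) in the 15 libraries, 1 point a library, with the mean of each population as a line and a library with 0 counts as an open triangle. Ccr2 steps down from 2240 to 2880 CPM in monocytes to 4.84 to 15.8 in Tim-4+CD4+ macrophages, whereas Cx3cr1 stays between 549 and 1100 in all libraries.

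Ccr2 (ENSMUSG00000049103, chr9:124101950-124113557, plus strand, GRCm38), the receptor for Ccl2 and related monocyte chemoattractants, separated all 4 populations. The 3 monocyte libraries held 2880, 2240 and 2760 CPM. The libraries of Tim-4–CD4– macrophages held 759, 510, 688 and 683 CPM, and those of the subset with CD4 alone held 113, 70.2, 65.2 and 87.7. Tim-4+CD4+ macrophages held 6.98, 15.8, 5.92 and 4.84 CPM, from 292 to 1840 reads each. No library of 1 population reached the range of the next, and the smallest gap between neighbouring macrophage subsets was 4.12 times. The log2 fold change was -2.97 (SE 0.30, edgeR adjusted p = 7.5e-06) in the CD4 step and -3.31 (SE 0.31, adjusted p = 5.9e-06) in the Tim-4 step. It was -6.28 (SE 0.35, edgeR adjusted p = 2.3e-09) over the whole span of subsets and -8.28 (SE 0.39, adjusted p = 7.4e-12) in Tim-4+CD4+ macrophages against monocytes. Replicate 2 of the Tim-4+CD4+ macrophages, at 15.8 CPM, was the highest of its group, and leaving out 1 library at a time kept the last of these between -8.77 and -8.09. The list of 7 monocyte markers summed to 5030 to 6760 CPM in monocytes, 375 to 458, 279 to 390 and 119 to 298 in the subsets, and its part in the level of Ccr2 was not tested.

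Of 6744 stretches of 65 bases, the read length, in the transcripts of Ccr2, 92 (1.36%) also occur in transcripts of other genes. Reads were sequenced in pairs, so these stretches do not show how many pairs could not be assigned to 1 gene.

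Cx3cr1 (ENSMUSG00000052336, chr9:119901616-120069879, minus strand) was the member with the narrowest range. Monocytes held 549, 653 and 740 CPM. The subset with neither protein held 947, 674, 947 and 1030 CPM, that with CD4 alone 1080, 1080, 828 and 1100, and Tim-4+CD4+ macrophages 927, 1090, 847 and 1100. All macrophage libraries but Tim-4–CD4– replicate 2 lay above the monocyte libraries, and the 3 subsets overlapped. Against monocytes Cx3cr1 was 1.39-fold (log2 0.48, SE 0.15, edgeR adjusted p = 0.012), 1.58-fold (0.66, SE 0.15, adjusted p = 0.0011) and 1.53-fold (0.62, SE 0.15, adjusted p = 0.0019) higher in the subsets. The first of these was no longer called without monocyte replicate 1 (log2 0.39, edgeR adjusted p = 0.051). The log2 difference was 0.18 in the CD4 step (95% interval -0.11 to 0.48), -0.04 in the Tim-4 step (-0.34 to 0.25) and 0.14 over the whole span (-0.16 to 0.43), and none was called. The annotated span of Cx3cr1 overlaps 5 protein-coding genes of the table with which it shares no exon base, and an antisense transcript with which it shares 78. The strand setting of the authors' count is not given, so reads over those 78 bases cannot be assigned to a strand.

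Set against each other per length, Ccr2 and Cx3cr1 changed places. RPKM, CPM divided by the kilobases of annotated exon, allows genes to be compared. The ratio of Ccr2 to Cx3cr1 RPKM was 3.5, 2.29 and 2.49 in the monocyte libraries and 0.534, 0.504, 0.484 and 0.441 in Tim-4–CD4– macrophages. It was 0.0697, 0.0435, 0.0525 and 0.0531 in the subset with CD4 alone and 0.00501, 0.00969, 0.00466 and 0.00293 in that with both proteins. The populations did not overlap in this ratio, and each macrophage library had less Ccr2 than Cx3cr1 transcript per length.

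Ccr1 (ENSMUSG00000025804, chr9:123962124-123968692, minus strand), a receptor for Ccl3, Ccl5 and Ccl6 among others, was at 104, 50.6 and 64.4 CPM in monocytes. The subset with neither protein held 426, 367, 455 and 450 CPM, that with CD4 alone 592, 511, 440 and 553, and Tim-4+CD4+ macrophages 420, 557, 409 and 474. Each macrophage library was at least 3.51 times above the highest monocyte library, and the subsets overlapped. Ccr1 was 5.8-fold higher than in monocytes in the first subset (log2 2.54, SE 0.21, edgeR adjusted p = 1.3e-08), 7.16-fold in the second (2.84, SE 0.21, adjusted p = 3.1e-09) and 6.36-fold in the last (2.67, SE 0.21, adjusted p = 5.9e-09). Monocyte replicate 1, at 104 CPM, stood above the other two. The log2 difference was 0.30 in the CD4 step (95% interval -0.07 to 0.67), -0.17 in the Tim-4 step (-0.54 to 0.20) and 0.13 over the whole span (-0.24 to 0.50), and none was called.

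**Figure D2:**
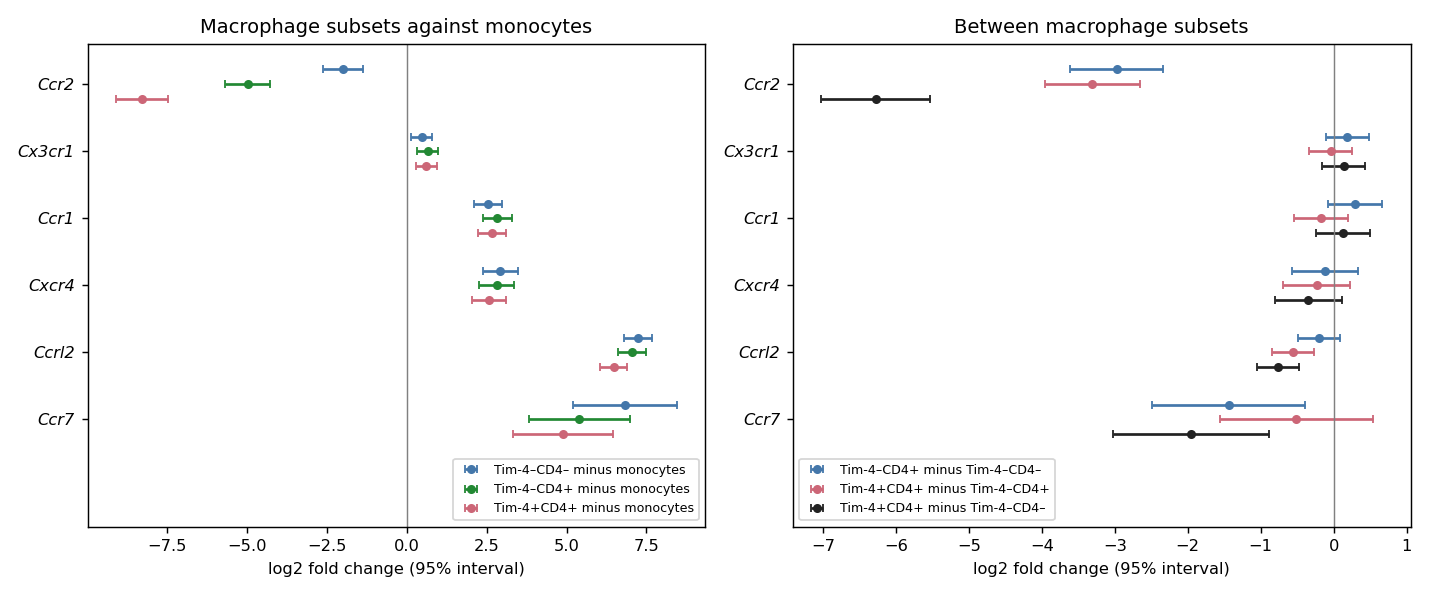
Log2 fold change of each receptor gene (points) with its 95% interval from the edgeR fit (bars), for the subsets against monocytes on the left and between subsets on the right. The intervals of Ccr2 lie apart from 0 in all 6 comparisons, and those of Cx3cr1, Ccr1 and Cxcr4 include 0 in each comparison between subsets.

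Cxcr4 (ENSMUSG00000045382, chr1:128588199-128592293, minus strand), the Cxcl12 receptor, was at 98.1, 98.6 and 109 CPM in monocytes. The subset with neither protein held 680, 1110, 619 and 702 CPM, that with CD4 alone 559, 590, 1030 and 684, and Tim-4+CD4+ macrophages 542, 542, 855 and 503. All macrophage libraries were well above the monocytes, and in each subset 1 library stood above the other 3. Against monocytes the log2 fold change was 2.93 (SE 0.26, edgeR adjusted p = 3.9e-08), 2.81 (SE 0.26, adjusted p = 5.2e-08) and 2.58 (SE 0.26, adjusted p = 1.2e-07) in the subsets. It was -0.12 in the CD4 step (95% interval -0.57 to 0.34), -0.23 in the Tim-4 step (-0.69 to 0.23) and -0.35 over the whole span (-0.81 to 0.11), and none was called.

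Ccrl2 (ENSMUSG00000043953, chr9:111054486-111057519, minus strand), the chemerin-binding receptor, rose strongly from monocytes to each subset. It was at 6.82, 4.99 and 5.85 CPM in monocytes. The subset with neither protein held 897, 1050, 754 and 868 CPM and that with CD4 alone 632, 743, 893 and 834. Tim-4+CD4+ macrophages held 632, 501, 535 and 439 CPM, all below the libraries of the other subsets, although their highest and the lowest with CD4 alone both round to 632. Against monocytes Ccrl2 was 151-fold (log2 7.24, SE 0.21, edgeR adjusted p = 2e-14), 131-fold (7.04, SE 0.21, adjusted p = 2e-14) and 89.3-fold (6.48, SE 0.20, adjusted p = 3.6e-14) higher in the subsets. Over the whole span of subsets it fell 1.69-fold (log2 -0.76, SE 0.14, edgeR adjusted p = 0.00068). The fall in the Tim-4 step (log2 -0.56, SE 0.14, edgeR adjusted p = 0.031) was no longer called in 10 of 24 alternatives, over which it stayed between -0.66 and -0.47 on the log2 scale with adjusted p between 0.0039 and 0.12. Of the libraries left out in turn, the call was lost without replicate 1 or 4 of the first subset (adjusted p = 0.054 and 0.052), replicate 2, 3 or 4 of the second (0.069, 0.11 and 0.11) and replicate 2, 3 or 4 of the last (0.095, 0.071 and 0.12). The log2 difference in the CD4 step was -0.20 (95% interval -0.49 to 0.09), which was not called.

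A list of 18 genes that respond to cell dissociation or act as immediate-early genes, such as Fos and Jun, moved with Cxcr4 and Ccrl2. Against monocytes 17 of the 18 were higher in each subset and none was lower, with a median log2 fold change of 4.90, 4.83 and 4.62. The shares of all genes were 37.3% to 39.5% higher and 28.1% to 31.3% lower. The list summed to 3100 to 3400 CPM in monocytes, and to 42600 to 52000, 36000 to 52100 and 35300 to 42600 in the subsets. The library with the highest sum in each subset was also the one with the highest Cxcr4, with 52000 CPM of the list beside 1110 of Cxcr4 in replicate 2 of the first subset, 52100 beside 1030 in replicate 3 of the second, and 42600 beside 855 in replicate 3 of the last. Those libraries were also the lowest of their subsets for Cx3cr1 (674, 828 and 847 CPM), for Ccr1 (367, 440 and 409) and for Ccr7 (3.43, 2.01 and 1.05). For Ccr2 the first 2 of them were the lowest, at 510 and 65.2 CPM. Ccrl2 was highest in the first 2 of them, at 1050 and 893 CPM, but in Tim-4+CD4+ macrophages in replicate 1. Over the whole span 6 of the 18 genes were lower and none higher, next to 11.9% and 11.3% of all genes. The part of the list in the levels of the 6 members was not tested.

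**Figure D3:**
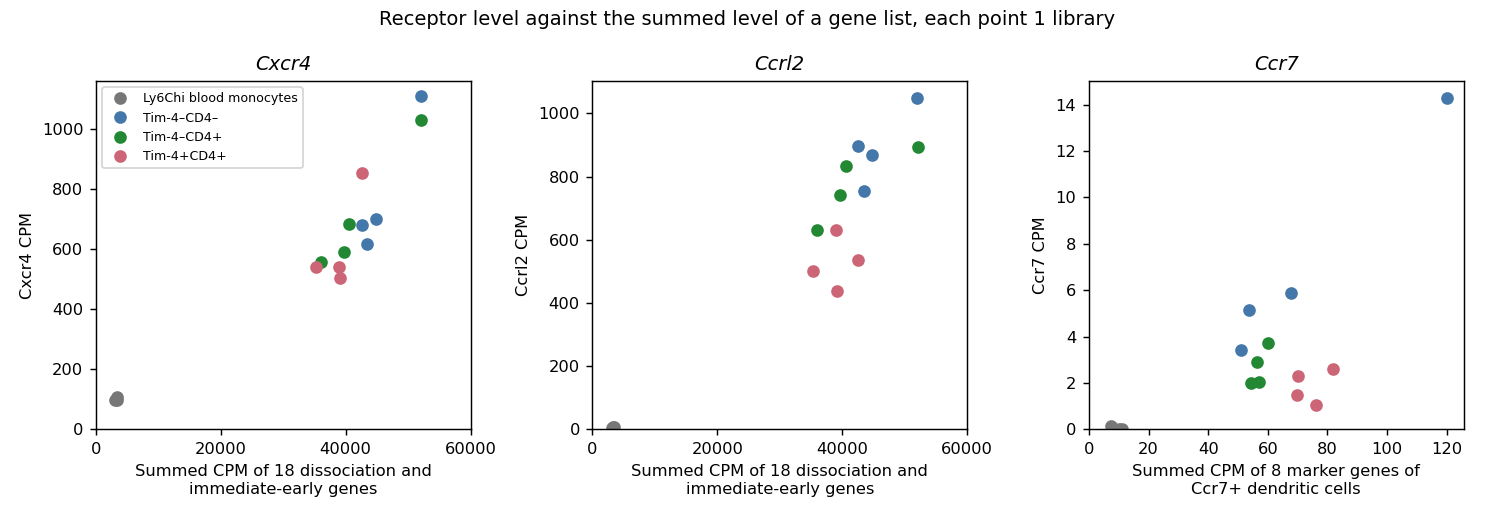
CPM of Cxcr4 and Ccrl2 against the summed CPM of 18 dissociation and immediate-early genes, and of Ccr7 against the summed CPM of 8 markers of Ccr7+ dendritic cells, 1 point a library. The monocyte libraries sit at 3100 to 3400 on the first axis and all macrophage libraries at 35300 to 52100, and Tim-4–CD4– replicate 3 stands apart in the third panel at 14.3 CPM of Ccr7 and a sum of 120.

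Cxcr4 and Ccrl2 rose from monocytes to macrophages, as did Ccr1, Ccr7 and Cx3cr1, so the rise does not set this pair apart. Shown here are the 250 bases before the transcription start of Cxcr4 and before the most upstream start of Ccrl2. They come from RefSeq (GRCm38.p6) and read in the direction of the gene. Capitals mark a match, on either strand, to 1 of 6 motifs. The TATA box, TATAAA, is held by 12.4% of 32851 windows of this length. The CCAAT box is held by 33.8% and the GC box, CCGCCC, by 32.7%. Of the cores bound by ETS factors, GAGGAA is held by 23.3% of the windows and the longer AGGAAGT by 7.69%. The AP-1 site, TGANTCA, is held by 6.75%.
Cxcr4, chr1:128592300-128592549, minus strand: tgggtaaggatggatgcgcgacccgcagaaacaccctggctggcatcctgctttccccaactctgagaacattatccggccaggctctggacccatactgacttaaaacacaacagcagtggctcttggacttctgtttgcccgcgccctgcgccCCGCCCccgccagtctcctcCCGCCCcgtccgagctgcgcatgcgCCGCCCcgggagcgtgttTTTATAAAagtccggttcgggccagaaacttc
Ccrl2, chr9:111057519-111057768, minus strand: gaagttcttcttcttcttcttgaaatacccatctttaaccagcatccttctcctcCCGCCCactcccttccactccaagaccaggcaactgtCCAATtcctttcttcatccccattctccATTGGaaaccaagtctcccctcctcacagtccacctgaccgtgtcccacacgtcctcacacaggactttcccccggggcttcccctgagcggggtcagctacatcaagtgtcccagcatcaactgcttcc
The Cxcr4 window holds CCGCCC 3 times and TATAAA on each strand at overlapping bases, with 61.2% G or C against a median of 52.4% over all windows. The Ccrl2 window holds CCGCCC once and CCAAT once on each strand, with 54.0% G or C. Neither holds TGANTCA, which says only that these letters are not in these windows. The windows of the other Ccrl2 starts hold none of the 6 motifs, with 50.8% and 51.2% G or C. The windows of Ccr1, Ccr2 and Cx3cr1 hold GAGGAA once, none of the motifs, and CCAAT once, in that order. The starts used are those of RefSeq. The Ccr2 window (chr9:124101933-124102182) therefore lies mostly inside the gene span given above, and the Cx3cr1 window (chr9:120068297-120068546) wholly inside it. Bases before the outermost annotated start of these genes were not searched in full.

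Ccr7 (ENSMUSG00000037944, chr11:99144196-99155077, minus strand), the lymph node homing receptor of dendritic cells, had the lowest mean per length of the members in each population and nearly no reads in monocytes. The monocyte libraries held 19, 0 and 1 reads, which is 0.135, 0 and 0.0186 CPM. The subset with neither protein held 5.86, 3.43, 14.3 and 5.15 CPM, that with CD4 alone 3.72, 2.88, 2.01 and 2.03, and Tim-4+CD4+ macrophages 2.59, 2.29, 1.05 and 1.46. Every macrophage library was above the monocytes, and the first and last subsets did not overlap, whereas both overlapped the middle one. The fitted log2 fold change against monocytes was 6.83 (SE 0.77, edgeR adjusted p = 7.8e-07), 5.39 (SE 0.74, adjusted p = 6.8e-06) and 4.88 (SE 0.73, adjusted p = 1.7e-05) for the subsets. Its size rests on the 19 reads of monocyte replicate 1: without that library it was 9.78, 8.35 and 7.85, with 1 read left in the group. Over the whole span of subsets Ccr7 was 3.86-fold lower (log2 -1.95, SE 0.50, edgeR adjusted p = 0.0097), and without Tim-4–CD4– replicate 3 this was no longer called (log2 -1.36, adjusted p = 0.064). In the CD4 step the log2 fold change was -1.44 (SE 0.50, edgeR adjusted p = 0.082), and in the Tim-4 step -0.51 (SE 0.49, adjusted p = 0.67). The former was called at -1.43 without monocyte replicate 1 or 2 (adjusted p = 0.037 and 0.047), and without Tim-4–CD4– replicate 3 it was -0.86.

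Markers of Ccr7+ dendritic cells were measured beside Ccr7. The 8 genes, among them Fscn1, an actin-bundling protein, and the chemokine Ccl22, summed to 7.5, 11 and 10.2 CPM in the monocyte libraries and to 50.9 to 120, 54.4 to 60.2 and 69.8 to 82.0 in the subsets. None was at 0 in all libraries of a population. Tim-4–CD4– replicate 3, the library with the most Ccr7, had the highest value of its subset for 6 of the 8 genes. How often it was highest over all genes was not counted. Nudt17, among the 6, was at only 0.625 CPM in that library and at a mean of 1.1 in monocytes. The broader dendritic cell list given above also summed highest in Tim-4–CD4– replicate 3, to 398 CPM, against 242 to 301 in the other libraries of that subset. Ccl22 was at 23.1, 14.4, 55.9 and 13.5 CPM in the libraries of that subset and Fscn1 at 5.46, 5.29, 12.3 and 5.25. Across the subsets the markers of Ccr7+ dendritic cells differed in direction. Ccl22 was at 26.7, 4.42 and 4.22 CPM and was lower in the CD4 step (log2 -2.59, SE 0.38, edgeR adjusted p = 0.00031) and over the whole span (log2 -2.66, SE 0.38, adjusted p = 7.8e-05). Socs2, a suppressor of cytokine signalling, was at 10.6, 18.3 and 21.2 CPM and was higher over the whole span (log2 1.00, SE 0.22, edgeR adjusted p = 0.0026), as was Fscn1 (log2 1.04, SE 0.27, adjusted p = 0.01), whose libraries overlapped. The part of these cells in the level of Ccr7 was not tested.

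Per length, the order of the receptors differed between monocytes and macrophages. In monocytes Ccr2 led at 389 ± 50.4 RPKM (SD, n = 3), followed by Cx3cr1 at 144 ± 21.3, Cxcr4 at 56.4 ± 3.54 and Ccr1 at 25.8 ± 9.86, and these 4 did not overlap. In Tim-4–CD4– macrophages Cxcr4 was at 430 ± 124 (SD, n = 4), Ccrl2 at 343 ± 46.1, Cx3cr1 at 200 ± 34.7 and Ccr1 at 150 ± 14.3. Ccr2 followed there at 97.6 ± 15.6, after Cmklr1 at 117 ± 7.8, with which it overlapped. Cxcr4 and Ccrl2 overlapped there, as did Cx3cr1 and Ccr1, and Ccrl2 and Cx3cr1 did not. In Tim-4–CD4+ macrophages the order was the same down to Ccr1, from 396 ± 120 for Cxcr4 to 185 ± 22.9 for Ccr1, and each of these overlapped with the next. Ccr2 followed after other receptors at 12.4 ± 3.20 RPKM. In Tim-4+CD4+ macrophages Cxcr4 led at 338 ± 90.7, above Cx3cr1 at 220 ± 27.8 without overlap, then Ccrl2 at 203 (169 to 243) and Ccr1 at 164 ± 23.8, which overlapped. Ccr2, at 1.24 ± 0.745 RPKM, overlapped there with Ccr10 at 0.953 ± 0.215, and Ccr7 was at 0.933 ± 0.362.

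The 6 members made up most of the RPKM summed over the 24 listed receptor genes in the table: 96.0% in monocytes and 87.5%, 84.1% and 82.7% in the subsets. Ccr2 alone took 60.4% ± 2.53 of the sum in monocytes (SD, n = 3) and 7.07% ± 1.52, 0.949% ± 0.301 and 0.110% ± 0.0646 in the subsets (n = 4 each). Cxcr4 took 8.81% ± 0.767 in monocytes and 30.4% ± 6.18, 29.4% ± 6.29 and 29.9% ± 6.19 in the subsets. Ccrl2 took 0.352% ± 0.032, 24.5% ± 1.52, 22.4% ± 1.75 and 18.2% ± 3.15 in the same order. A share falls when another receptor rises, and the sum itself was 643 ± 62.8 RPKM in monocytes and 1400 ± 110, 1330 ± 112 and 1120 ± 69.4 in the subsets.

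**Figure D4:**
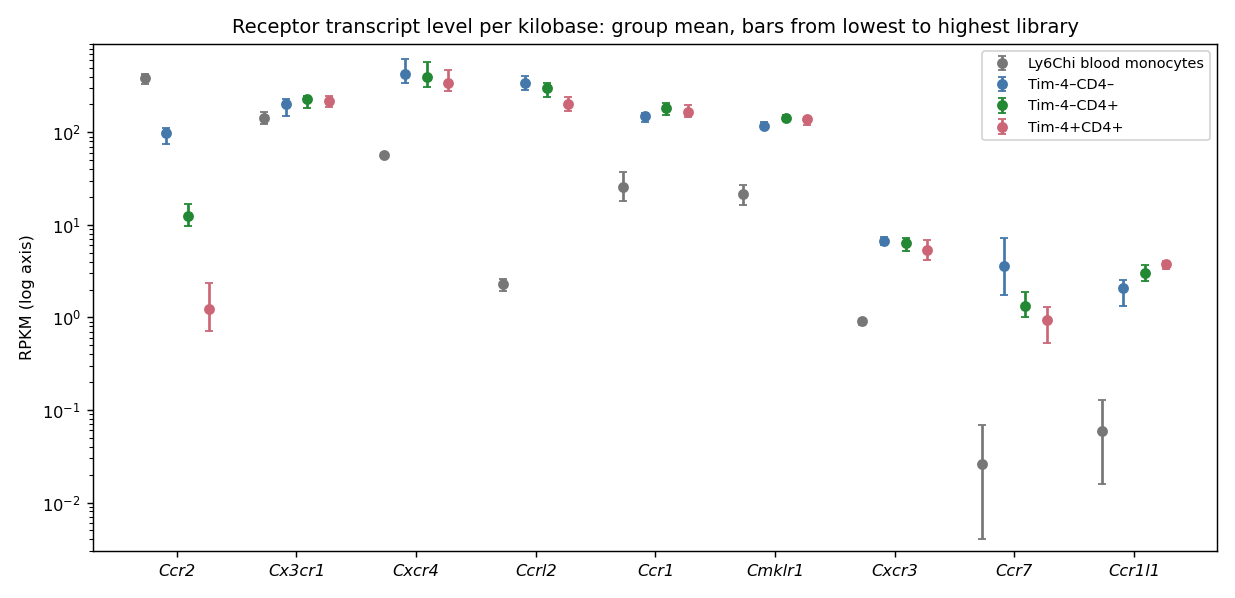
Mean RPKM (log axis) of the 6 members and of the other receptors Cmklr1, Cxcr3 and Ccr1l1 in each population, with bars from the lowest to the highest library; the Ccr7 bar of monocytes is cut at 0.004 because 1 library has 0 counts. Ccr2 goes from the highest receptor in monocytes (389) to 1.24 in Tim-4+CD4+ macrophages, and Cxcr4 leads in each macrophage subset.

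Most of the other receptors of the list were low, and most were higher in macrophages. Of 20 listed, 18 were analysed here and 17 passed the filter, all but Ccr8. Against monocytes 15, 15 and 14 were higher in the subsets, and 0, 1 and 1 lower, the lower one being Cxcr2, the neutrophil receptor. Some of these calls rest on few reads. In Tim-4–CD4– macrophages Ccr4, called higher, had 0 reads in 3 of 4 libraries and 26 in the other. Ackr2, also called higher there, had a mean of 0.137 CPM, and for both genes the libraries overlapped those of monocytes. The shares of all genes were 37.3% to 39.5% higher and 28.1% to 31.3% lower. Cmklr1, the signalling chemerin receptor, was at 73.2 ± 18.2 CPM in monocytes and 400 ± 26.6, 481 ± 30.8 and 471 ± 41.4 in the subsets, which was a log2 fold change of 2.45, 2.72 and 2.69 (edgeR adjusted p between 4.5e-11 and 1.8e-10). Cxcr3, a receptor of interferon-induced chemokines, was at 0.913 RPKM in monocytes and 6.75, 6.42 and 5.36 in the subsets. Ccr3, Ccr4, Ccr6, Ccr9, Ccr10, Cxcr5, Cxcr6, Xcr1, Ackr1, Ackr2, Ackr3 and Ackr4 had a mean of at most 0.953 RPKM in any population. Between subsets 1 of the 17 was called, Ccr1l1, which was higher over the whole span (log2 0.86, SE 0.30, edgeR adjusted p = 0.048). The median log2 fold change of the 17 against monocytes was 4.52, 5.45 and 5.58, or 3.22, 3.10 and 3.54 with Ackr2, Ackr3, Ackr4 and Ccr4, at 0 counts in all monocyte libraries, set to the bound from 3 counts a library.

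Ccr2 lies on chromosome 9 among other receptor genes whose levels had other patterns. From Ccrl2 to Ccr2, over 13059.1 kb of the GENCODE M21 annotation of GRCm38, lie 12 receptor genes of the lists in the order Ccrl2, Ccr4, Cx3cr1, Ccr8, Ackr2, Ccr9, Cxcr6, Xcr1, Ccr1, Ccr1l1, Ccr3 and Ccr2. Ccr3, the eotaxin receptor, ends 70.3 kb before the start of Ccr2. It was at 0.0664 CPM in monocytes and 0.468, 0.643 and 0.870 in the subsets, against 2630 ± 341, 660 ± 106, 84.1 ± 21.6 and 8.39 ± 5.04 for Ccr2. Ccr1l1, a close relative of Ccr1 that lies 8.6 kb from it, was at 0.0688 CPM in monocytes and 2.43, 3.54 and 4.41 in the subsets. Xcr1, the receptor of cross-presenting dendritic cells, was at 0.0118 CPM in monocytes and 2.83, 2.61 and 2.62 in the subsets.

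**Figure D5:**
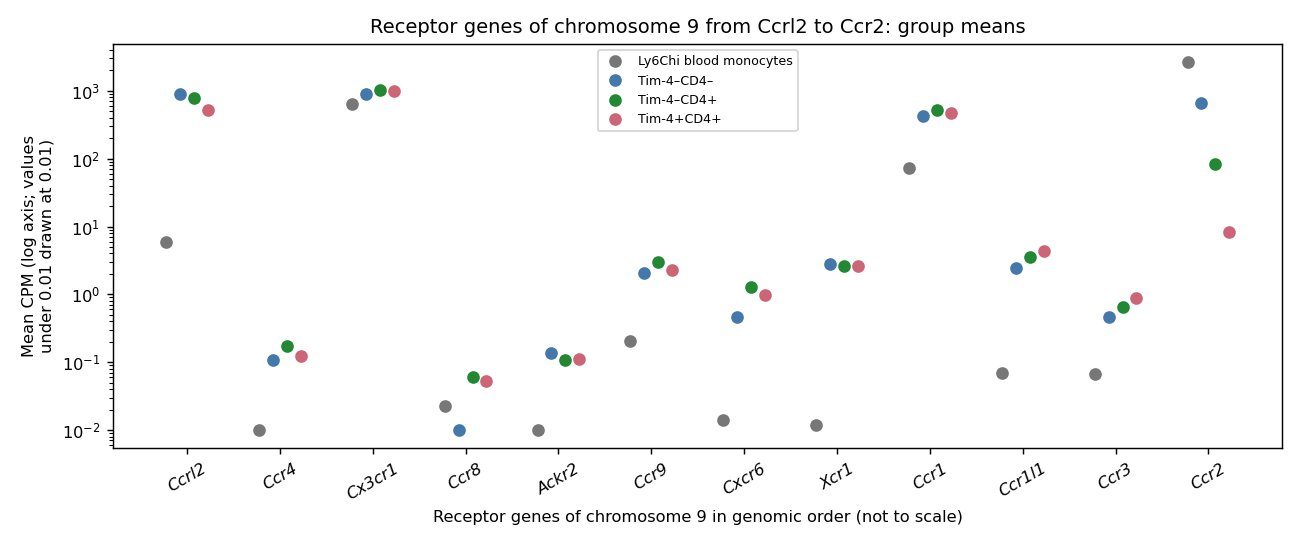
Mean CPM (log axis, values under 0.01 drawn at 0.01) in the 4 populations for the 12 listed receptor genes of chromosome 9 from Ccrl2 to Ccr2, in genomic order and not to scale. Ccr2 goes from 2630 in monocytes to 8.39 in Tim-4+CD4+ macrophages, and Ccr1 from 73.1 in monocytes to 424 or more in the subsets.

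Transcripts of most ligands of the members were higher in the macrophages than in monocytes. Of 14 listed ligands, 13 were tested. Of all genes 37.3% to 39.5% were higher than in monocytes and 28.1% to 31.3% lower. Of the ligands, 11 were higher and 2 lower in each subset. The lower 2 were Ccl6 and Ccl9, both ligands of Ccr1. They were also lower over the whole span of subsets, Ccl9 from 97.0 ± 14.4 to 35.7 ± 11.1 CPM (log2 -1.44, SE 0.23, edgeR adjusted p = 0.00018) and Ccl6 from a range of 292 to 340 to one of 126 to 182 (log2 -1.02, SE 0.14, adjusted p = 5.9e-05). Ccl12, a ligand of Ccr2, fell from 101 ± 35.2 to 48.2 ± 14.5 CPM (log2 -1.06, SE 0.28, edgeR adjusted p = 0.011), and the libraries of these subsets overlapped. Ccl8 rose from 29.7 ± 3.25 to 51.6 ± 7.75 CPM (log2 0.80, SE 0.12, edgeR adjusted p = 0.00014), and the Cxcr4 ligand Cxcl12 from 8.82 ± 0.745 to 12.4 ± 1.54 (log2 0.49, SE 0.13, adjusted p = 0.013). Ccl2, the main ligand of Ccr2, was at 190 ± 42.6 and 127 ± 19.6 CPM in these 2 subsets and was not called (edgeR adjusted p = 0.11). Among macrophages 1 ligand was higher and 2 lower, 1 higher and 0 lower, and 2 higher and 4 lower, for the CD4 step, the Tim-4 step and the whole span. The shares of all genes were 4.52% and 5.53%, 2.07% and 1.34%, and 11.3% and 11.9%, in the same order. The median log2 fold change of the ligands against monocytes was 8.67, 8.67 and 8.66, or 8.47, 8.36 and 8.66 with Rarres2 (chemerin) and Ccl21a, at 0 counts in monocytes, at their bound.

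Genes that carry or end the receptor signal mostly had less mRNA than in monocytes. Of the 28 tested G protein subunits, arrestins, receptor kinases, RGS proteins and effectors, 8 were higher and 18, 18 and 19 lower than in monocytes in the subsets. The shares of all genes were 37.3% to 39.5% higher and 28.1% to 31.3% lower. Over the whole span 6 of the 28 were higher and 7 lower, next to 11.3% and 11.9% of all genes. Rgs18, which speeds the inactivation of G protein alpha subunits, fell from 4.03 ± 0.722 to 0.0841 ± 0.0358 CPM between these subsets (log2 -5.47, SE 0.34, edgeR adjusted p = 6.7e-09), and was at 25.4 ± 2.08 in monocytes. Arrb1, an arrestin, fell from 169 ± 7.98 to 112 ± 14.6 CPM (log2 -0.60, SE 0.11, edgeR adjusted p = 0.00057), and the receptor kinase Grk6 from 109 ± 3.73 to 80.4 ± 7.43 (log2 -0.44, SE 0.08, adjusted p = 0.00079). Rgs3 rose from 9.42 ± 0.366 to 20.7 ± 2.63 CPM (log2 1.13, SE 0.11, edgeR adjusted p = 1.3e-06) and the kinase Grk3 from a range of 132 to 164 to one of 165 to 234 (log2 0.49, SE 0.12, adjusted p = 0.006). Rgs1 rose from 1920 ± 211 to 2670 ± 23.3 CPM (log2 0.47, SE 0.15, edgeR adjusted p = 0.028), against 1.35 ± 0.568 in monocytes.

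The genes most like each member over the 15 libraries were found by the root mean square difference of log2 CPM after centring each gene, among 11797 genes with a mean of at least 1 CPM. For Ccr2 they were Rgs18 (difference 0.61), Atp8b4 (0.88) and the adenosine receptor gene Adora2b (0.89). Adora2b went from 22.4 CPM in monocytes to 1.67, 0.185 and 0.0151 in the subsets. For Ccr1 they were Lair1 (0.11), which encodes an inhibitory collagen receptor, Ncapg2 (0.18) and Tlr3 (0.21). For Cx3cr1 they were Rin2 (0.13), Paxbp1 (0.14) and Fbxl4 (0.14). For Cxcr4 they were Rhob (0.19), Pnrc1 (0.22) and the co-chaperone gene Dnajb4 (0.24), and for Ccrl2 Tent5c (0.27), the cytokine gene Il1b (0.29) and Jun (0.32), which is also in the dissociation list. Il1b went from 36.3 CPM in monocytes to 3780, 3170 and 2910 in the subsets. For Ccr7 they were Nr4a2 (0.70), an orphan nuclear receptor, Mmp12 (0.72) and Klri1 (0.72). All points share the 15 libraries and the 4 population means, so the measure mostly compares those means.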

How the data were processed

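RNA was sequenced from 3 libraries of Ly6Chi blood monocytes and 12 of small intestinal macrophages. The authors used Trimmomatic 0.36 for trimming, STAR 2.4.2 for alignment (GRCm38.p4), and HTSeq 0.6.1p1 with GENCODE vM11 to count uniquely placed reads by gene. The strand setting is not given in the sources used here. The raw counts as deposited were used. The authors also deposited a normalized signal, the counts divided by 1 size factor per library, which was checked only against the counts. Each gene of the table has at least 16 reads in total.

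Gene symbols and positions came from GENCODE M21 (GRCm38), which matched 19421 of 19456 identifiers. Groups and replicate numbers came from the titles. Genes were filtered with filterByExpr by population, scaled by TMM, and tested with edgeR 4.0.16 (R 4.3.3) in 1 quasi-likelihood fit over the 15 libraries, with Benjamini-Hochberg adjustment over 15802 genes in each comparison and a threshold of 0.05. The SE of a log2 fold change is its absolute size divided by the square root of the F statistic of its test. The 95% intervals were built from this SE and are approximate. RPKM used the union of annotated exons, and log2 CPM a prior count of 2. The alternatives were DESeq2 1.42.0, relative log expression or upper-quartile scaling, no filter, a stricter one (1 CPM on average), a fit on just the pair of populations at issue, blocking on the replicate number, counts thinned to the smallest library, CPM on the total count, and leaving out each library. In simulated counts with 200 of 15434 genes changed in the Tim-4 step, the test found 80% of the 2-fold and 96% of the 4-fold changes, with 3.3% false calls. The changed genes had a mean over 1 CPM, and counts were drawn independently from the spread fitted by edgeR. The rates hold for that setting only.

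Named were the 6 members, the other listed receptors that passed the filter, up to 3 ligands and up to 3 signalling genes each way, taken by size of change among those called over the whole span with a mean of at least 1 CPM, the 3 genes most like each member, and the genes of the sort. Ccl2, Ccl22, Fscn1, Socs2, Nudt17, Kmo, Dpp4, Flt3, Mmp8, Ltf and Retnlg, and the receptors taken out of the chromosome 9 interval, were named after their values were seen. The values of 1 listed gene are not reported here. Members, lists, and motifs were chosen with earlier results of these data known. With no molecular identifiers, bounds from 3 counts cover counting error only. The labels call the libraries replicates of pooled mice, and p-values measure the spread between these libraries. Figures were drawn with matplotlib 3.10.9.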

Additional observations from a re-analysis of the deposited data

Results flagged for a closer look

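In the 18 sets of 4 macrophage libraries, 6 genes in 3 subsets, a library far from the other 3 was sought by the ratio of its gap to the range of the set, against Dixon's 95% critical value for 4 values. Chance alone marks about 1 set in 20, and 3 of the 18 were marked. Cx3cr1 in Tim-4–CD4+ macrophages was at 828 CPM in replicate 3, against 1080 to 1100 in the others. Cxcr4 in Tim-4–CD4– macrophages was at 1110 CPM in replicate 2, against 619 to 702 in the others, and in Tim-4+CD4+ macrophages at 855 CPM in replicate 3, against 503 to 542. All 3 values come from the library with the highest summed dissociation and immediate-early genes of its subset. The sets are not independent, since the 6 genes were measured in the same libraries.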

How the results depend on the processing

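Of 864 fold changes of the members recomputed under the alternatives, 845 kept their direction and their side of the threshold. The number of members called in the CD4 step was 2 in a fit of just that pair, and between 1 and 2 with 1 library left out, the added member being Ccr7. In the Tim-4 step it was 1 with upper-quartile scaling, 1 with the replicate block by title number, and between 1 and 2 with 1 library left out, because Ccrl2 was no longer called. The cause was not tested. Over all genes DESeq2 called 917 in the Tim-4 step against 539 with edgeR, and calls in the CD4 step ran from 1033 to 2203 with 1 library left out, against 1589, the lowest without Tim-4–CD4+ replicate 4. Values that changed sign were never called. With 1 library left out, Cxcr4 ran from -0.35 to 0.11 in the CD4 step, the highest without Tim-4–CD4– replicate 2, and from -0.43 to 0.01 in the Tim-4 step, the highest without replicate 3 of the subset with CD4 alone. In the Tim-4 step Cx3cr1 was 0 without Tim-4–CD4+ replicate 4 and 0.04 with Tim-4+CD4+ replicate 3 removed.

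Replicate numbers were not taken to pair the libraries, since the labels name no shared animal or day. The paper describes 4 independent sorts of macrophages, each from 3 pooled mice, and does not state whether the subsets shared these pools. The main fit treated all libraries as independent, and shared pools were allowed for only in the alternatives that block on the replicate number. The correlations given next cannot exclude shared pools, because title and description numbers disagree for Tim-4–CD4+ macrophages and the true matches are not known. Same-numbered libraries of the subsets correlated between -0.12 and 0.13 by title number, with 2 of 12 pairs over 0.1, and between -0.09 and 0.16, with 4 of 12 over 0.1, by the number in the description, which differs for Tim-4–CD4+ macrophages. Those 4 include all pairs of description number 4 (0.13 to 0.16). With the replicate block by title number 431 of all genes were called in the Tim-4 step, and 506 with that by description; Ccrl2 was not called with the former (edgeR adjusted p = 0.071). Ccr7 in monocytes is limited by depth, with 20 reads over 3 libraries.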
